A study of Arabidopsis thaliana with 6 samples.

Results

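The oligosaccharyltransferase complex was described through 9 genes that encode subunits: STT3A (AT5G19690_at), STT3B (AT1G34130_at), OST1A (AT1G76400_at), OST1B (AT2G01720_at), HAP6 (AT4G21150_at), DGL1 (AT5G66680_at), DAD1 (AT1G32210_at), DAD2 (AT2G35520_at) and OST3/6 (AT1G61790_at). They were taken by locus code from the 27827 features of the array, and all 9 had a row with a value on each array. A further 5 loci ascribed to the complex are not among the 9 and are given apart, after the other lists. The samples were mature pollen of Arabidopsis thaliana in the Columbia 0 background. One genotype was wild type and the other, written NOT1+/-, was heterozygous for a mutation in NOT1, with 3 biological replicates per genotype and 1 array per replicate. NOT1 is the scaffold of CCR4-NOT, a complex that removes poly(A) tails from messenger RNAs. Seedlings were raised on medium with a fungicide and an antibiotic that the labels do not name, and then grown in soil. About 300000 grains per sample, from open flowers, were sorted by flow cytometry before RNA extraction. The labels do not name the kind of NOT1 mutation. Grains of a heterozygous plant segregate, so a NOT1+/- sample mixes grains that carry the mutant allele with grains that do not.

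Oligosaccharyltransferase sits in the membrane of the endoplasmic reticulum (ER) and moves a preassembled sugar tree from a dolichol lipid onto asparagines of proteins as they enter the ER, the step that starts N-glycosylation. The STT3 subunit carries the active site, and the other subunits hold the complex together, bind the lipid-linked donor or help with particular acceptor proteins. In a pollen grain, which makes large amounts of wall and surface proteins for the growth of the pollen tube, the complex serves the secretory pathway. HAP6 takes its name from HAPLESS mutants, which were found by poor transmission through a gametophyte.

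Values are intensities on a linear scale. The array medians lay between 12.03 and 13.1, and the 95th percentiles were 133 to 141 on wild-type arrays and 193 to 202 on NOT1+/- arrays. No detection calls were at hand, so a value near or below the array median cannot be told from background and the size of a fold that starts there is uncertain. NOT1 itself (AT1G02080) was measured first as a check of the labels. Wild-type arrays gave an intensity of 48.5 ± 2.20 and NOT1+/- arrays 31.0 ± 2.11 (SD, n = 3 arrays each), with a log2 fold change of -0.65 and a limma adjusted p of 0.0295, which was 0.0527 to 0.118 when any 1 array was left out, 0.0696 with a replicate block and 0.0546 after median centring. The labelled cell type was checked with markers. The 5 pollen vegetative cell markers (ACA9, ANX1, ANX2, VGD1 and VGDH1) had values of 837 or more on every array, while the 5 photosynthetic tissue markers stayed at or below 20.3 and the 5 floral organ identity markers at or below 22.2. PI and SEP1 lay above the array median on every array. LHCA1 lay above it on every wild-type array and below it on every NOT1+/- array. It was called lower (limma adjusted p = 0.0445, 0.0429 to 0.129 with 1 array left out), beside 3.22% of all features. RBCS1A and CAB1 were mixed, and the other photosynthetic and floral markers lay below the array median on every array. The 6 tapetum markers reached at most 46.2. Of these, AT5G07230 (23.2 to 46.2) and GRP17 (22.2 to 36.1) lay above the array median on every array. A7 (AT4G28395) and EXL6 lay below it on every array, and AMS and MS1 were mixed.

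Several of the subunit genes were higher in NOT1+/- pollen. By limma with Benjamini-Hochberg adjustment over all features, 5 of the 9 genes were called higher at an adjusted p under 0.05 and 0 were called lower (1 lower, DAD2, at an unadjusted p under 0.05), while 8.84% of all features were called higher and 3.22% lower. HAP6 rose 6.49-fold, OST1B 4.12-fold, STT3A 3.18-fold, DGL1 1.92-fold and OST1A 1.65-fold. STT3B, DAD1, DAD2 and OST3/6 did not pass the test, which does not show that they differed from the genes that did. A rise of at least 2-fold was called for 3 of the 9, and for 6.44% of all features. The median log2 fold change of the 9 genes was 0.73, beside -0.10 over all features. Of the 9 genes, 5 had their 3 NOT1+/- values above their 3 wild-type values, an order found for 14.9% of all features. They are the 5 called genes, whose calls rest on the same values, so this order is not a separate result. DAD2 had the opposite order, found for 16.9%. In whole pollen, fewer cells of a type and less RNA per cell cannot be told apart. The exact permutation test of 3 against 3 arrays cannot go below p = 0.1, and it gave that value for these 6 genes.

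**Figure D1:**
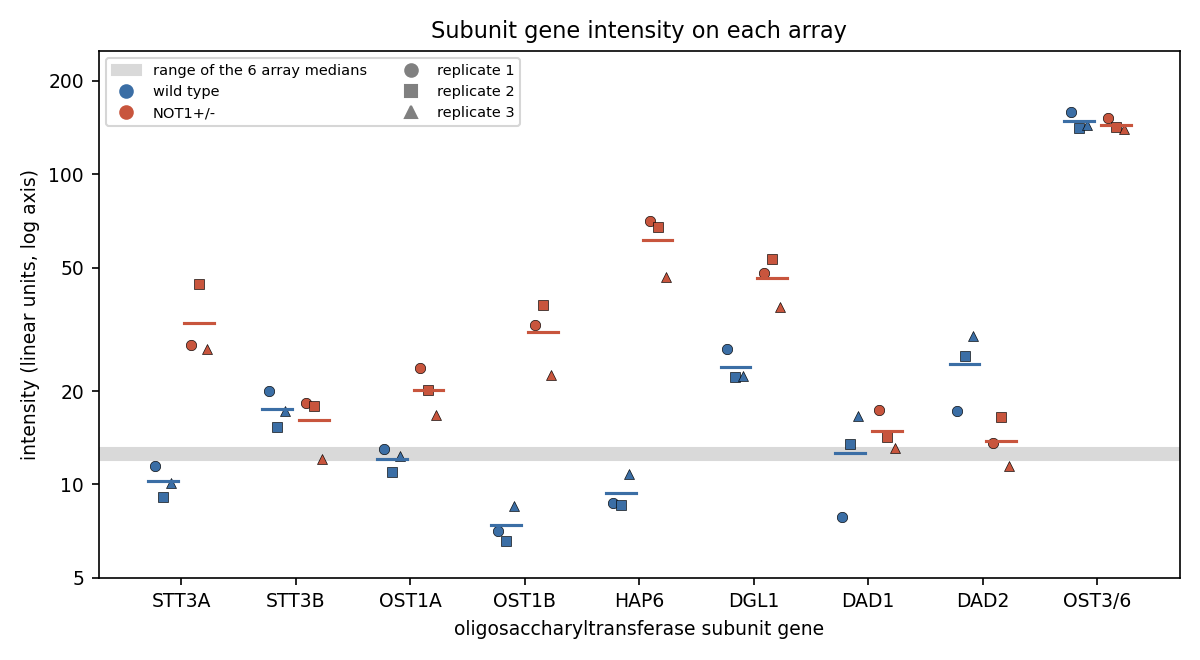
Intensity of each subunit gene on each array (linear units on a log axis), with wild type in blue, NOT1+/- in red, the replicate number as the marker shape and a bar at the mean of 3 arrays; the grey band is the range of the 6 array medians. STT3A, OST1A, OST1B, HAP6 and DGL1 have every NOT1+/- value above every wild-type value, while OST3/6 stays between 139 and 158. Levels of different genes rest on different probes and are not comparable with each other.

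STT3A and STT3B encode alternative catalytic subunits. The intensity of STT3A was 11.5, 9.11 and 10.1 on the wild-type arrays and 28.2, 44.3 and 27.2 on the NOT1+/- arrays. All NOT1+/- values were well above all wild-type values, which lay below the median of their arrays. Its log2 fold change was 1.67 (SE 0.23, 95% interval 1.14 to 2.20, limma adjusted p = 0.00214), and the call held when any 1 array was left out (adjusted p 0.0054 to 0.0105). With 16 intensity units added before log2, which damps changes among dim values, the fold fell from 3.18 to 1.86 and the call remained. STT3B, the other catalytic subunit, had 20.02, 15.3 and 17.3 in wild type and 18.4, 17.9 and 12.1 in NOT1+/-. The groups overlapped, and the log2 fold change of -0.14 (SE 0.22, 95% interval -0.64 to 0.37, adjusted p = 0.744) leaves room for anything between 64.4% and 129% of the wild-type level.

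OST1A and OST1B are both homologues of ribophorin I, a large subunit that in mammals helps to present certain membrane proteins to the catalytic subunit. The dimmer values of OST1B in wild type, 7.09, 6.55 and 8.51, were all below the array medians, against 32.6, 37.8 and 22.5 in NOT1+/-. The genotypes were far apart, with replicate 3 the lowest of the NOT1+/- arrays. OST1B had a log2 fold change of 2.04 (SE 0.23, 95% interval 1.51 to 2.57, limma adjusted p = 0.00075), and with 16 units added the fold went from 4.12 to 1.99 and stayed called. OST1A had 13.03, 11.0 and 12.4 in wild type and 23.7, 20.2 and 16.7 in NOT1+/-. The groups did not overlap, but the step between them was narrow and the wild-type values lay near the array medians. The log2 fold change of OST1A was 0.73 (SE 0.18, 95% interval 0.30 to 1.15, limma adjusted p = 0.0417). This call was lost without wild-type replicate 1, 2 or 3 (adjusted p = 0.0761, 0.127 and 0.0784), without NOT1+/- replicate 1 or 2 (0.147 and 0.122) and with arrays centred on the 75th percentile (0.0623). The value became 0.36 with 16 units added.

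HAP6, the homologue of ribophorin II, showed the largest change among the 9 genes. Its wild-type values were 8.70, 8.59 and 10.8, and its NOT1+/- values were 70.6, 67.4 and 46.5. The gene thus went from below the array median on every wild-type array to far above it on every NOT1+/- array. Its log2 fold change was 2.70 (SE 0.21, 95% interval 2.20 to 3.19, limma adjusted p = 0.000119), with adjusted p between 0.00024 and 0.00129 when 1 array was left out. Adding 16 units before log2 reduced the fold from 6.49 to 3.03. DGL1, which corresponds to OST48 of mammals and WBP1 of yeast, had 27.4, 22.2 and 22.3 in wild type and 48.2, 53.3 and 37.3 in NOT1+/-. These values lay above the array median in both genotypes. With 16 units added before log2 the fold still fell from 1.92 to 1.55, and the call remained. DGL1 had a log2 fold change of 0.94 (SE 0.19, 95% interval 0.49 to 1.39, limma adjusted p = 0.0174), and the call was lost without wild-type replicate 2 (adjusted p = 0.0629) or NOT1+/- replicate 1 or 2 (0.0763 and 0.0736). 

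DAD1 and DAD2 encode small subunits, homologues of OST2 of yeast and of the mammalian protein named for its defence against cell death. DAD1 had 7.86, 13.5 and 16.6 in wild type and 17.4, 14.2 and 13.1 in NOT1+/-. The wild-type arrays differed among themselves more than the genotypes did, and its log2 fold change was 0.29 (SE 0.29, 95% interval -0.37 to 0.95, adjusted p = 0.572). DAD2 had 17.2, 25.9 and 30.04 in wild type and 13.6, 16.5 and 11.5 in NOT1+/-. The genotypes did not overlap, although the highest NOT1+/- value, in replicate 2, was close to the lowest wild-type value. The log2 fold change of DAD2 was -0.79 (SE 0.25, 95% interval -1.37 to -0.21) and its limma adjusted p of 0.0871 missed the threshold. It passed without wild-type replicate 1 (adjusted p = 0.0329), with trend and robust estimation of the variance (0.0458), with dim features filtered out (0.0376) and with 16 units added (0.0477).

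OST3/6, a subunit whose yeast counterparts have a thioredoxin-like fold and which in Arabidopsis is needed for full glycosylation of some surface receptors, was well above the array medians in both genotypes. It had 158, 141 and 145 in wild type and 152, 142 and 139 in NOT1+/-. The ranges overlapped. OST3/6 had a log2 fold change of -0.03 (SE 0.15, 95% interval -0.38 to 0.31, adjusted p = 0.914), so that the interval covers 76.8% to 124% of the wild-type level. After quantile normalization, which lowers bright features on NOT1+/- arrays because the upper percentiles were higher there, the log2 fold change was -0.53 (adjusted p = 0.061), which also missed the threshold. 

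**Figure D2:**
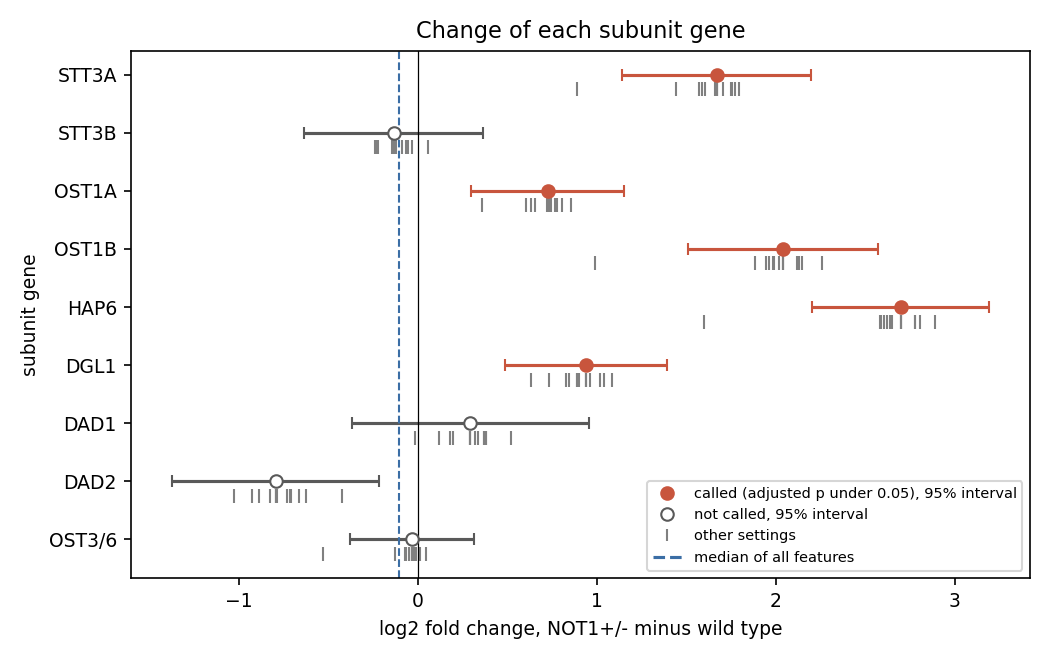
Log2 fold change of each subunit gene, NOT1+/- minus wild type, with its 95% limma interval; filled red points were called at an adjusted p under 0.05 and open points were not. Grey ticks give the same quantity under the other 14 settings and the dashed line is the median over all features, -0.10. HAP6, OST1B and STT3A have intervals that begin above 1, and DAD2 has its interval below 0 without passing the adjusted threshold.

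Where a subunit has a pair of genes, the paralogues were compared with each other. This was done as the log2 ratio of the paralogues within each array, which does not depend on how the arrays were scaled by a common factor, and each ratio was set to a wild-type mean of 0. The ratio of STT3A to STT3B stood at -0.026, 0.028 and -0.0012 in wild type and at 1.39, 2.08 and 1.94 in NOT1+/-. Every NOT1+/- array was higher, and the difference was 1.80 (SE 0.21). The ratio of OST1A to OST1B went the other way, from 0.16, 0.025 and -0.18 to -1.18, -1.63 and -1.14, a difference of -1.32 (SE 0.18). In wild type both genes had values near the array medians or lower, which leaves the size of this difference uncertain. STT3A was below the array median on every wild-type array, so the same holds for its ratio to STT3B. The ratio of DAD1 to DAD2 moved from -0.16, 0.035 and 0.12 to 1.33, 0.76 and 1.17, a difference of 1.09 (SE 0.19). Some values of DAD1 in wild type and of DAD2 in NOT1+/- were near the array medians or lower, so this size is uncertain too. Neither DAD gene was called on its own. The genotypes did not overlap in the ratio of the DAD genes, nor did they in DAD2 alone. Among single features, 14.9% had no overlap with NOT1+/- above and 16.9% with NOT1+/- below. How often ratios of other gene pairs do not overlap was not computed. Each of the 3 pairs gave p = 0.1 in the exact two-sided permutation test (0.1 after adjustment over the 3 pairs), the smallest value that 3 against 3 arrays allow, so none can pass a threshold of 0.05. With 16 units added before log2 the differences were 0.96, -0.63 and 0.54. Paralogues can share probe sequence, and whether these probes cross-hybridise was not tested.

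**Figure D3:**
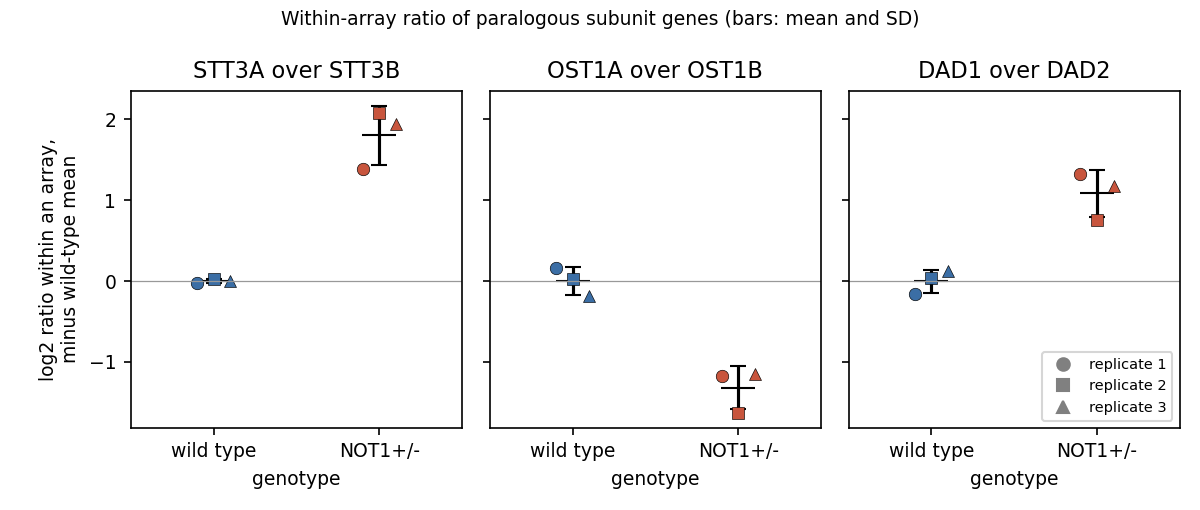
Log2 ratio of paralogous subunit genes within each array, minus the wild-type mean of that ratio, for wild type (blue) and NOT1+/- (red); marker shapes give the replicate and bars the mean and SD of 3 arrays. The NOT1+/- means are 1.80 for STT3A over STT3B, -1.32 for OST1A over OST1B and 1.09 for DAD1 over DAD2, and the genotypes do not overlap in any panel.

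The NOT1+/- replicates differed in a way that the subunit genes shared. NOT1+/- replicate 3 had the lowest of the 3 NOT1+/- values for all 9 genes, against 36.3% of all features and 77.5% of the features called higher. Above the wild-type mean log2, HAP6 stood at 2.92, 2.85 and 2.32 in replicates 1, 2 and 3, OST1B at 2.15, 2.36 and 1.61, and STT3A at 1.47, 2.12 and 1.42. Every NOT1+/- replicate stood above the wild-type mean for each of these 3 genes, with a spread of 0.60 to 0.75 between the highest and the lowest replicate. Markers of the sperm cells, which lie inside the pollen grain, ran the opposite way: all 5 (MGH3, GEX1, GEX2, HAP2 and DUO1) were highest in NOT1+/- replicate 3. The share of all features highest in that replicate was not computed. The summed intensity of the 5 sperm cell markers was 723, 819 and 1153 in NOT1+/- replicates 1, 2 and 3 and 673 to 679 in wild type. Limma called 2 of these 5 higher, MGH3 and DUO1, beside 8.84% of all features. The MGH3 call was lost without any 1 array (adjusted p 0.0712 to 0.110), and that of DUO1 held (0.0264 to 0.0355). The summed intensity of the 5 vegetative cell markers was 8676, 9122 and 8373 in NOT1+/- and 7847 to 8907 in wild type. For 4 of these 5 markers NOT1+/- replicate 3 was the lowest of its group, as for the subunit genes. Of these 5, ANX1 was called higher (limma adjusted p = 0.0313), a call lost without any 1 array (0.053 to 0.113). The part of cell content in the subunit changes was not tested. Without NOT1+/- replicate 3 the same 5 subunit genes were called higher, with log2 fold changes of 2.89 for HAP6, 2.26 for OST1B, 1.79 for STT3A, 1.09 for DGL1 and 0.85 for OST1A.

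**Figure D4:**
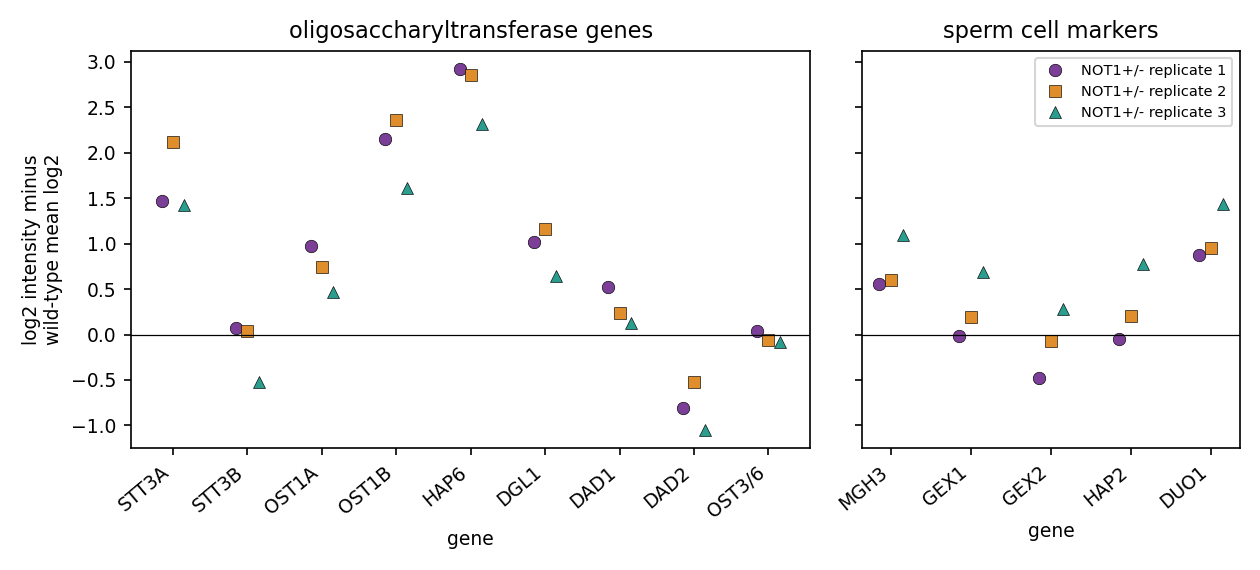
Log2 intensity of each NOT1+/- replicate minus the wild-type mean log2, for the 9 subunit genes (left) and the 5 sperm cell markers (right). Replicate 3 (green triangles) is the lowest for all 9 subunit genes and the highest for all 5 sperm markers, while HAP6 stays at 2.32 or more above wild type in every replicate.

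The SD of log2 values between replicates ranged over the 9 genes from 0.0861 (OST3/6) to 0.557 (DAD1) in wild type and from 0.0649 (OST3/6) to 0.392 (STT3A) in NOT1+/-. The medians over all features were 0.249 and 0.221. DAD1 and DAD2 were thus the least reproducible of the subunit genes in wild type, and OST3/6 the most reproducible in both genotypes. No other feature repeated the 6 values of any of these 9 genes, so none shares its whole probe set with another locus.

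The features whose pattern over the 6 arrays was most like that of HAP6, by Euclidean distance between log2 values centred on each feature's mean, were AT5G57300 (distance 0.109), GFAT (AT3G24090, 0.156) and AT1G61240 (0.206). AT5G57300 had 16.8, 15.4 and 19.7 in wild type and 130, 131 and 83.6 in NOT1+/-. GFAT, named in the reference table as an L-glutamine D-fructose-6-phosphate amidotransferase, had 7.40, 7.45 and 8.90 in wild type and 56.3, 59.99 and 36.6 in NOT1+/-. AT1G61240 had 7.80, 7.49 and 8.64, against 64.8, 62.4 and 44.6. As in HAP6, replicate 3 was the lowest NOT1+/- array in each. These features were chosen for their likeness to HAP6 over the same 6 arrays, so this order is not a separate result.

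Genes that act before the transfer step changed in both directions. They were read from a list of 22 loci for synthesis of the dolichol lipid and assembly of the sugar tree on it; loci without a symbol in the reference table are given by code. Limma called 5 of the 22 higher and 2 lower, beside 8.84% and 3.22% of all features, and the median log2 fold change of -0.10 was that of all features. AT5G38460 rose by a log2 fold change of 3.15 (SE 0.22), from 5.79 ± 0.965 to 51.8 ± 11.1, AT4G16710 rose from 8.10 ± 2.78 to 33.5 ± 4.30 (2.09, SE 0.25) and AT4G18230 from 9.71 ± 2.06 to 36.8 ± 3.11 (1.94, SE 0.20). These 3 loci were below the array median on every wild-type array, and with 16 units added their folds of 8.89, 4.27 and 3.83 became 3.09, 2.06 and 2.05. EBS3, a mannosyltransferase of the assembly line, went from 21.3 ± 1.08 to 44.1 ± 7.93 (1.04, SE 0.18, limma adjusted p = 0.00867). DPMS1, which makes the mannose donor dolichol phosphate mannose, went from 39.2 ± 3.60 to 75.3 ± 13.4 (0.93, SE 0.19, adjusted p = 0.0169), a call lost after quantile normalization (0.0628) and without NOT1+/- replicate 1 or 2 (0.0772 and 0.074).

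GPT, which adds the first sugar to the dolichol lipid, had 76.4 ± 10.7 in wild type and fell to 45.7 ± 5.49 in NOT1+/- (-0.74 on the log2 scale, SE 0.18, limma adjusted p = 0.0368). AT1G16570, which lies outside the rule for named genes and was chosen after its values were seen, fell from 24.2 ± 1.64 to 15.2 ± 1.91 (-0.67, SE 0.17, adjusted p = 0.0367). Neither call was stable. That of GPT was lost with median centring (adjusted p = 0.0691) and without wild-type replicate 2 or 3 or any 1 NOT1+/- array (0.0657 to 0.138). That of AT1G16570 was lost after median centring (0.0547) and without any 1 array (0.0529 to 0.128), and its log2 fold change was -0.37 with 16 units added. The other 15 loci had log2 fold changes between -0.53 and 0.57 and were not called.

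Genes that act after the transfer step included glucosidases and mannosidases that rose. A list of 18 loci for trimming and Golgi maturation had 6 called higher and 0 lower by limma (1 lower, CGL1, at an unadjusted p under 0.05), beside 8.84% and 3.22% of all features, with a median log2 fold change of 0.42. All 3 loci for glucosidases I and II, which remove the glucoses of the transferred sugar tree in the ER, were called higher. RSW3, the catalytic subunit of glucosidase II, had 13.4, 10.5 and 13.95 in wild type and 85.3, 95.7 and 82.3 in NOT1+/-. The genotypes were widely separated, with a log2 fold change of 2.81 (SE 0.18, limma adjusted p = 4.2e-05). Its partner PSL4 went from 21.5 ± 2.36 to 103 ± 12.3 (2.26, SE 0.17), and GCS1 (AT1G67490), glucosidase I, from 10.8 ± 2.52 to 25.2 ± 3.77 (1.24, SE 0.22). The mannosidases MNS1, MNS2 and MNS3, which trim mannose next, were all called higher. MNS2 had 68.05, 73.6 and 80.97 in wild type and 271, 293 and 267 in NOT1+/- (log2 fold change 1.90, SE 0.16, adjusted p = 0.000143). MNS3 had a log2 fold change of 1.71 (SE 0.21) and MNS1 of 1.36 (SE 0.23). These 6 calls held when any 1 array was left out. With 16 units added the folds of RSW3, PSL4 and GCS1 went from 7.01, 4.80 and 2.36 to 3.63, 3.17 and 1.54. Those of MNS1, MNS2 and MNS3 went from 2.57, 3.74 and 3.28 to 1.73, 3.25 and 2.34. The wild-type values of RSW3, GCS1 and MNS1 were near the array medians or lower, so the sizes of their changes are uncertain.

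The other 12 loci were not called by limma in the full fit. The 8 for Golgi mannosidase II and the sugar transferases of complex glycans had log2 fold changes between -0.43 and 0.87, with FUT11 higher and CGL1 lower at an unadjusted p under 0.05. MNS4 and MNS5, mannosidases that act in the ER on glycoproteins bound for degradation, lay between -0.37 and 0.38. The 2 hexosaminidases lay between 0.45 and 0.51, with HEXO3 higher at an unadjusted p under 0.05. Grouping the list by enzyme was done after the values were seen, and differences between these groups were not tested. 

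A further list held 5 loci ascribed to the oligosaccharyltransferase complex but not among the 9 genes. It was drawn up from general knowledge of the complex, and its loci had no names in the reference table. The list had 1 call in each direction, beside 8.84% of all features called higher and 3.22% lower. Its median log2 fold change was -0.10. AT2G19340 had 31.1 ± 3.15 in wild type and 62.8 ± 12.9 in NOT1+/- (0.996 on the log2 scale, SE 0.20, limma adjusted p = 0.0164), a call lost without wild-type replicate 2 (0.0512) or NOT1+/- replicate 1 or 3 (0.072 and 0.0604). AT5G02502 went from 11.9 ± 2.09 to 6.65 ± 0.734 (-0.83, SE 0.19, adjusted p = 0.0274), a call lost without any 1 array other than wild-type replicate 2 (0.0633 to 0.104). It ended below the array median, and its log2 fold change was -0.30 with 16 units added.

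**Figure D5:**
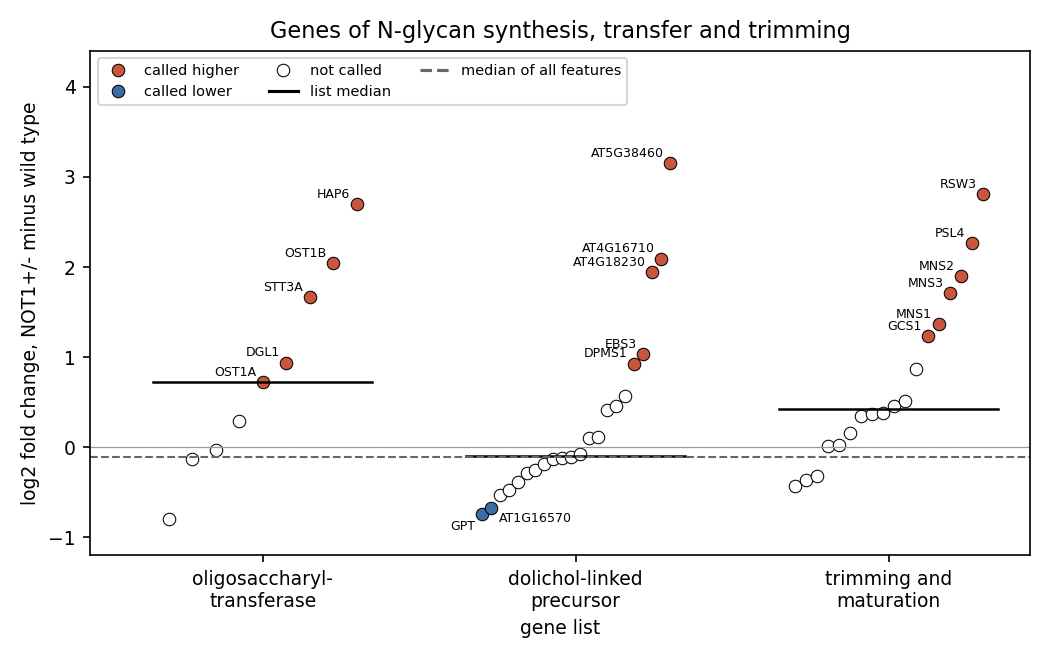
Log2 fold change, NOT1+/- minus wild type, of the 9 oligosaccharyltransferase genes, the 22 genes of the dolichol-linked precursor and the 18 genes of trimming and maturation, each list sorted by value; red points were called higher, blue lower and open points not called. List medians (black bars) are 0.73, -0.10 and 0.42 beside -0.10 for all features (dashed), and the lists hold 5, 5 and 6 genes called higher. The 5 further loci ascribed to the complex are not drawn.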

How the data were processed

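Total RNA (100 ng per sample) from sorted pollen was amplified, labelled and put on 1-colour Affymetrix gene array strips, per the labels' protocols. The authors deposited linear intensity values, 1 per locus and array, with a minimum of 1. The submitters' processing notes name Affymetrix Expression Console; no version, background correction or scaling was stated in them as used here. The number of arrays limits the precision, and no scan date or strip number was at hand to test as a batch.

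Log2 of the values as deposited, with no offset or filter, was fitted over all 27827 features with limma 3.58.1 in R 4.3.3 (lmFit, eBayes), with 1 coefficient for NOT1+/- minus wild type, and Benjamini-Hochberg adjustment ran over the whole table. Group values are arithmetic means ± SD. Folds are ratios of geometric means. Exact permutation tests used scipy 1.17.1, and figures matplotlib 3.10.9. The names of the 9 members are those given with the member list. Symbols of other features come from a RefSeq gene table (assembly TAIR10.1), in which 27241 features were found. The names NOT1, MNS4 and MNS5 were set without that table, which gave no symbol for the loci of MNS4 and MNS5 (AT5G43710 and AT1G27520). The members and lists were chosen with earlier results of these data known. The text names all 9 members, NOT1, the called genes of each pathway list (at most 6 per list, by size of change) and the 3 features nearest in pattern to the most changed member. Results were also computed with a replicate block, with trend and robust variance estimation, array weights, quantile normalization, centring on the median or the 75th percentile, a filter that keeps features above the median of mean log2 level, 16 units added before log2 and leaving out each array.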

Additional observations from a re-analysis of the deposited data

How the results depend on the processing

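HAP6, OST1B and STT3A were called higher under all 14 other settings. Of these settings, 1 keeps features by their mean log2 level over both genotypes. These 3 genes lay below the array median on every wild-type array, so they passed that filter through their NOT1+/- values. Their calls in that setting are therefore not a separate check. OST1A, DGL1 and DAD2 changed sides of the threshold as given above. The count of subunit genes called higher ranged from 3 to 5 when 1 array was left out, and the count called lower, 0 in the full fit, from 0 to 1; that count was also 1 with trend and robust variance estimation, with only features above the median level and with 16 units added, each time DAD2. Genes near no change turned in sign: without 1 array STT3B ranged from -0.24 to 0.059, DAD1 from -0.017 to 0.52 and OST3/6 from -0.071 to 0.015, and OST3/6 was 0.044 after median centring, none of these values called. In the dolichol list the 2 lower calls became 0 with the replicate block and after median centring, and 0 to 1 without 1 array. They became 4 with only features above the median level, and 3 with trend and robust estimation, quantile normalization or 16 units added. In the trimming list 1 was lower after quantile normalization. There, 7 rather than 6 were higher with the replicate block, trend and robust estimation, median centring, only features above the median level or 16 units added. Among the 5 further loci, higher calls ranged from 0 to 1 and lower calls from 0 to 1 without 1 array. Lower calls were 0 with only features above the median level, because that filter removed AT5G02502 and it was not tested there. Features called lower over the whole array, 896 in the full fit, numbered 555 with the replicate block, 1458 with trend and robust estimation, 1991 after quantile normalization, 571 after median centring, 1460 after centring on the 75th percentile, 1515 with only features above the median level, 1490 with 16 units added and 258 to 711 without 1 array. The share of higher among all calls was 73.3% in the full fit, 52.5% after quantile normalization, 60.2% after centring on the 75th percentile and 82.5% after median centring. The cause of these shifts was not tested. Replicate numbers were not shown to pair samples across genotypes: the correlations of same-numbered deviations were 0.114, 0.133 and -0.013. With the replicate number as a block 4 subunit genes were called, OST1A being lost (adjusted p = 0.0672), and the exact p of each of the 3 paralogue differences (1.80, -1.32 and 1.09, which a block cannot move in this balanced design) went from 0.1 to 0.25, the smallest that 3 pairs allow. Wild-type signal near or below the array median limits the sizes of the changes of STT3A, OST1A, OST1B and HAP6.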
